A study of Caenorhabditis elegans with 2 samples.

Results

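The regions described here are the strong autosomal intronic regions of the ELT-3 map, 368 of the 30000 regions in the list that pools both replicates. That list is labelled as peaks and background, the input for IDR, a filter on agreement between replicates. A region in it, strong or weaker, is therefore not by itself a peak that passed the filter. They were selected from the 2000 regions with the largest pooled signal value. A region was kept when it lay on an autosome, when its summit lay inside the body of a protein-coding gene but in no annotated exon, and when the summit lay outside every promoter. The promoter of each protein-coding gene was taken as the 1000 bp before its 5′ end and the 200 bp after it. The signal value is a score that the authors gave each region, and none of the sources used here states its scale. Pooled signal and position selected these regions and are described without a test. Signal within each replicate also entered tests. Regions ranked by it were tested for recurrence in the other replicate's list, and for DNA sequence by their rank in both lists. DNA sequence and the starts of alternative transcripts were not used in the selection.

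The map comes from ChIP-seq, which recovers sheared DNA crosslinked to a protein, against ELT-3 in whole Caenorhabditis elegans at the L1 larval stage, with both sexes pooled. The worms were of strain OP75, which carries the unc-119(ed3) mutation and the insertion wgIs75, and they stably expressed ELT-3 joined at its C terminus to a GFP-FLAG tag. There was 1 group of 2 biological replicates, with no second genotype, stage or treatment, so the p-values below describe regions in these libraries and not a spread between conditions. Whole animals were used, so the tissue in which a region was bound cannot be told apart. Replicate 1 came with a list of 30000 regions and replicate 2 with 15646, and none of the sources used here states a read depth. Near unc-119, which many transgenic worm lines carry as a rescue marker, 1 of the 368 regions lay less than 20 kb from that gene's centre, in vab-7.

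GATA factors are zinc finger proteins that bind short DNA words with GATA at the core. ELT-3 is a GATA factor of the worm epidermis, the layer that secretes the cuticle. Introns can hold enhancers, which act on their own gene or on others, and they can also hold the start sites of shorter transcripts. A GATA site is here AGATAA or AGATAG or TGATAA or TGATAG on either strand, with its whole length inside the window that reaches 50 bp to each side of the summit.

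The windows below belong to 7 regions with a GATA site and 2 regions without, so that the sequence of strong intronic regions can be read directly. F42A8.1, D2023.3, mthf-1, nhr-21 and mup-4 host the strongest regions outside the chromosome left out of sequence display that hold a site. The genes qua-1 and col-159 belong to the lists of molting genes and cuticle collagens, and zip-2 and pdl-1 host regions of high signal without a site. Each line gives the plus strand of ce11, 5′ to 3′, from the RefSeq copy of the genome, with GATA sites in capitals in either orientation, so that TTATCA is TGATAA on the other strand.
F42A8.1, chrII:9344020-9344120: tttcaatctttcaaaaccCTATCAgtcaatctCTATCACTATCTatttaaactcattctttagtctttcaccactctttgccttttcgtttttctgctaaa
D2023.3, chrV:11802543-11802643: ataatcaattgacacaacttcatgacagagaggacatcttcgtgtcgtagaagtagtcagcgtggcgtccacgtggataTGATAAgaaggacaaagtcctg
mthf-1, chrII:7776882-7776982: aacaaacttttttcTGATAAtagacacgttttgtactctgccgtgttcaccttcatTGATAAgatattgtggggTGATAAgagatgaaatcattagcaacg
nhr-21, chrII:7343040-7343140: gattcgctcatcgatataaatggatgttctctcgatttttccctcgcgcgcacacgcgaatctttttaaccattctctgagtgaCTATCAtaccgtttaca
mup-4, chrIII:7488426-7488526: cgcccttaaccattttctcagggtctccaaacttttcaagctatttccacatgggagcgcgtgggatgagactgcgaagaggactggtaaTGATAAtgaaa
qua-1, chrII:8202964-8203064: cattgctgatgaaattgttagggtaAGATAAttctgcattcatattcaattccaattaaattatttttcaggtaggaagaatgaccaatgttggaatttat
col-159, chrV:13200404-13200504: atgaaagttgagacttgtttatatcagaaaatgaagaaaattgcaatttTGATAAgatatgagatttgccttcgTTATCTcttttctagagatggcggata
zip-2, chrIII:833822-833922: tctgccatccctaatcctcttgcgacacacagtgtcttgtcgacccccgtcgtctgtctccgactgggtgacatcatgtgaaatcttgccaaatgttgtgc
pdl-1, chrII:7184079-7184179: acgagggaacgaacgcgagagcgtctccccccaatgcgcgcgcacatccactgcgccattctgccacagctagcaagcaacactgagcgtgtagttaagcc
The mthf-1 window holds 3 copies of TGATAA, and in F42A8.1 a CTATCA adjoins the CTATCT, with another CTATCA close by. The pdl-1 window has no GATA site and holds runs of alternating G and C, with 60.4% G and C against 31.7% in the F42A8.1 window.

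A GATA site lay within 50 bp of the summit in 153 of the 368 regions (41.6%, 95% exact binomial interval 36.5 to 46.8). Over all 30000 pooled regions the share was 21.6%, and over positions placed every 100 bp in eligible autosomal introns it was 18.1%. In windows of the same size centred 500 bp to each side of the same summits, 131 of 736 held a site (17.8%, 15.1 to 20.8), which gave an odds ratio of 3.29 (2-sided Fisher's exact test, p = 9.92e-17). Only 382 of these flanks lay in the same intron as the summit. With those flanks alone the share was 19.6% and the odds ratio 2.91 (exact test, p = 5.77e-11). The word comparisons below used all 736 flanks unless a band of G and C content is named. The 5307 weaker intronic regions, which met every other part of the rule but ranked below 2000, held a site in 1014 cases (19.1%, 18.1 to 20.2), with an odds ratio of 3.01 (Fisher's exact test, p = 2.60e-21). Windows were treated as independent, although 115 regions share their host gene with another. With 1 region for each host gene the odds ratio against weaker regions was 3.17. Regions selected from a single replicate showed smaller odds ratios against flanks, 1.85 from replicate 1 and 2.26 from replicate 2, and against weaker regions of that replicate 2.00 and 2.25. In all 4 of these comparisons p stayed below the threshold of 0.05.

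Base composition differed between the sets as well. The strong intronic windows held 41.2 ± 7.9% G and C, against 36.8 ± 8.1% in weaker intronic windows (SD, n = 368 and 5307) and 32.9% over the grid of intron positions. GATA words are rich in A and T, and strong windows with a site held 39.4 ± 7.1% G and C, against 42.4 ± 8.2% without (SD, n = 153 and 215). Among windows with 35 to 45% G and C, 44.9% of strong intronic regions held a site, against 17.6% of weaker ones. The odds ratio was 3.81 in that band and 3.01 over all windows.

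**Figure D1:**
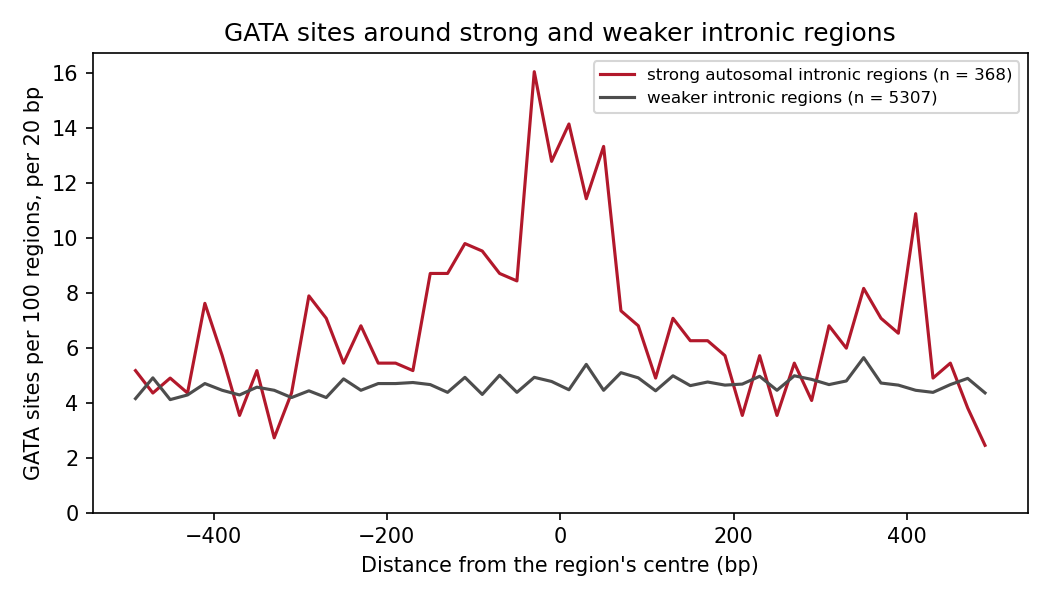
GATA sites per 100 regions in steps of 20 bp (vertical axis) by distance from the centre of the region (horizontal axis) for the 368 strong and the 5307 weaker intronic regions. The strong regions show a peak over the centre, while the curve of the weaker regions is flat across the 500 bp shown to each side.

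In 53 of the 368 windows (14.4%) there were 2 sites or more, against 3.15% of weaker intronic windows. There were 215 strong intronic regions with no site, 100 with 1, 33 with 2, 16 with 3 and 4 with 4 or more. Among the last was blmp-1, which encodes a zinc finger transcription factor of developmental timing, with 4 sites in its window. The median site lay 23 bp from the summit, and 127 of the 230 sites (55.2%, 48.5 to 61.8) lay within 25 bp. Of the 1216 sites in weaker intronic windows 53.0% (50.1 to 55.8) lay that close, and the intervals overlap. A site ran along the strand of the host gene in 43.5% of cases (37.0 to 50.2), against 47.1% in weaker regions.

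The 4 GATA words did not contribute equally. TGATAA was found in 96 strong intronic windows (26.1%), against 8.83% of flanks, and was the most frequent. AGATAA stood in 10.1% against 4.76% of flanks, TGATAG in 9.78% against 3.53%, and AGATAG in 7.34% against 2.72%. The ratio of window to flank went from 2.11 for AGATAA to 2.95 for TGATAA. In weaker intronic regions the same 4 ratios lay between 0.80 and 1.26.

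All 2080 words of 6 bases, each joined with its reverse complement, were then compared by Fisher's exact test with Benjamini-Hochberg adjustment over all words. Against flanks 62 words were more frequent (2.98% of those tested) and 44 less frequent (2.12%). Against weaker intronic regions 116 were more frequent (5.58%) and 66 less frequent (3.17%). Regions selected without replicate 2 gave 27 and 24 words against flanks and 72 and 36 against weaker regions, and those selected without replicate 1 gave 15 and 11, and 63 and 36. TGATAA had the smallest p among the words more frequent than in flanks, followed by GTGATA and GATAAG. Against weaker regions GTGATA and TGATAA came first, and AAGAGA and GAGAGA stood ahead of GATAAG. Without replicate 2 the leading word was AGAGAA against flanks and AAGAGA against weaker regions, and without replicate 1 it held GATA in both comparisons. GTGATA stood in 17.1% of strong intronic windows, against 4.21% of flanks (exact test, adjusted p = 2.76e-09) and 3.58% of weaker regions (adjusted p = 4.90e-19). GATAAG stood in 14.1%, against 3.67% of flanks (exact test, adjusted p = 3.90e-07) and 4.56% of weaker regions (adjusted p = 2.14e-09). These words overlap TGATAA by 5 bases each, which gives the 8-base word GTGATAAG. That word occurred in 18 strong intronic windows (4.89%), against 6 flanks (0.815%) and 29 weaker regions (0.546%). These words were not confined to introns. In strong intergenic and strong promoter regions GTGATAAG stood in 4.36% and 3.25%, GTGATA in 13.1% and 8.94%, and GATAAG in 20.1% and 13.4%. The longer word was looked up after the shorter ones had been seen and is given as a description.

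Words without GATA also differed. GAGAGA stood in 64 strong intronic windows (17.4%), against 5.71% of flanks (exact test, adjusted p = 5.40e-07) and 6.41% of weaker regions (adjusted p = 1.58e-09). AAGAGA stood in 18.75% of them, against 7.10% of weaker regions (exact test, adjusted p = 9.94e-10). ACGCAG stood in 7.61%, against 0.951% of flanks (exact test, adjusted p = 2.35e-06) and 3.09% of weaker regions. It stood in 6.98% of strong intergenic regions and 11.6% of strong promoter regions. Of the 44 words less frequent than in flanks, 36 held 5 or more A or T. AAAATT was found in 18.75% of strong intronic windows, against 42.8% of flanks and 43.8% of weaker regions, and AAAAAT and AAATTT shared this direction, as did ATTTTA and also AAATAT. In windows with 35 to 45% G and C only 7 words were more frequent than in flanks and none was less frequent, and 28 were more and 7 less frequent than in weaker regions. That band held 187 strong intronic regions and 281 flanks, against 368 and 736 without it, so the effects of composition and of fewer windows on these counts cannot be told apart.

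The 215 strong intronic regions without a GATA site were compared with the 4293 weaker regions without a site, a comparison added after the data were seen. Among 2080 words, 54 were more frequent (2.60%) and 26 less frequent (1.25%). The smallest p of all went to a less frequent word, AAAATT, in 19.1% against 44.3% (exact test, adjusted p = 8.15e-11), followed by AAAAAT and AAATTT, also less frequent. Among the more frequent words AGAGAA, in 20.9% against 8.78%, and GAGAGA, in 15.8% against 6.03%, came first (exact test, adjusted p = 5.88e-05 and 0.000318). Base composition was not held fixed in this comparison. GAGAGA also stood in 19.6% (13.6 to 26.8) of the strong intronic regions with a GATA site, against 7.99% (6.39 to 9.83) of weaker ones with a site. It was in 17.3% of strong promoter regions and 25.9% of strong intergenic regions, so the word was not confined to introns.

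Other classes of strong autosomal regions gave a scale for these shares. Strong promoter regions held a GATA site in 148 of 492 cases (30.1%, 26.1 to 34.3), a lower share than the 41.6% in strong intronic regions (odds ratio 1.65, adjusted p = 0.00157 by Fisher's exact test over 3 classes). That call was lost in windows with 35 to 45% G and C (odds ratio 1.34, Fisher's exact test, adjusted p = 0.518). This band held 187 strong intronic and 185 strong promoter regions, so composition and fewer windows cannot be told apart there. The call was also lost with the 4 letters GATA as the site (odds ratio 1.33, Fisher's exact test, adjusted p = 0.134). Without replicate 1 it was lost as well (odds ratio 1.41, Fisher's exact test, adjusted p = 0.0562). Strong promoter windows held 43.7% G and C on average. No difference was detected from the 344 strong intergenic regions (44.8%, 39.4 to 50.2, exact test, adjusted p = 0.608) or from the 87 strong intronic regions on X (42.5%, 32.0 to 53.6, adjusted p = 0.904). The wide interval for X limits that comparison.

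Among strong intronic regions the share with a site was highest at the top ranks. It was 61.0% (44.5 to 75.8) in the 41 regions ranked 1 to 253, 45.8% (37.7 to 54.0) in the 153 ranked 254 to 1000 and 33.3% (26.4 to 40.9) in the 174 ranked 1001 to 2000. Below rank 2000 the intronic share lay between 18.3% and 20.8% in every band. Promoter regions stood at 27.7% (18.4 to 38.6) at ranks 1 to 253 and 36.4% (29.7 to 43.6) at ranks 254 to 1000. At ranks 1001 to 2000 they stood at 25.2% (19.6 to 31.6), and these promoter intervals overlap. Intergenic regions stood at 62.7%, 50.4% and 34.8% in the first 3 bands, close to the intronic shares.

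**Figure D2:**
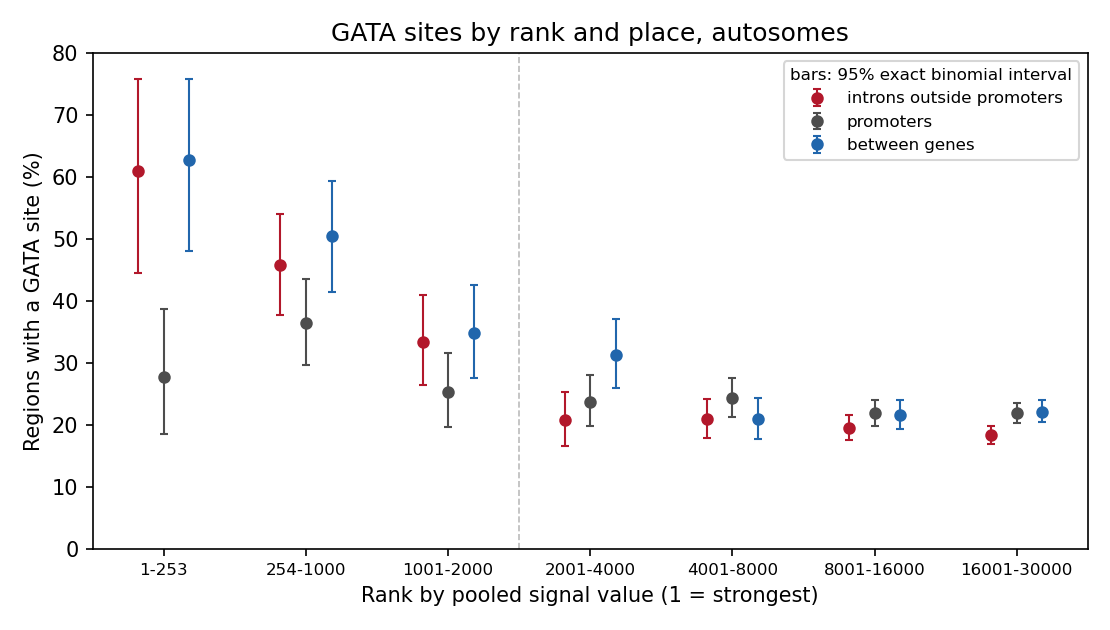
Share of regions with a GATA site (vertical axis, percent, with 95% exact binomial intervals) by rank of pooled signal (horizontal axis) for autosomal introns outside promoters, promoters and the space between genes. Left of the dashed line at rank 2000 the intronic share stands at 61.0%, 45.8% and 33.3%, and right of it near 20%.

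The pooled signal of the 368 regions went from 25.9 to 99.3, with a median of 29.9. Just inside the limit were regions in F43H9.4 (25.89), sem-2 (25.86) and T14B4.8 (25.85), and just outside it were T10G3.3 (25.80), Y61A9LA.1 (25.80) and hsp-75 (25.77), so signal changes little across the limit. The authors' optimal set of 253 regions, labelled as the peaks that passed the IDR threshold, holds 41 of the 368 regions. That is 11.1%, against 0.843% of all pooled regions, a count that signal fixes. The other strong intronic regions are not in that set.

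Matches within 100 bp in the separate replicate lists were found for 345 regions in replicate 1 (93.75%) and for 309 in replicate 2 (84.0%). Both replicates listed 289 (78.5%, 74.0 to 82.6), against 15.0% of all pooled regions and 81.5% of strong promoter regions. Since the pooled list was made from both replicates, these shares are a description. The 3 regions found in neither list lay in mca-1, ape-1 and anc-1, named here after their values were seen. Across the 289, the signal went from 8.18 to 56.3 in replicate 1 and from 8.73 to 42.9 in replicate 2, and the replicates differed by a median of 1.35-fold, against 1.16-fold for weaker intronic regions and 1.22-fold for all pooled regions listed in both. They lay 2-fold or more apart in 24 regions (8.30%), against 0.378% of weaker intronic regions and 3.28% of all pooled regions. The share was 10.5% in strong promoter regions and 10.3% in strong intergenic regions, with medians of 1.39-fold and 1.36-fold. Weaker intronic regions lay near the lower end of each list, which leaves little room for a difference. Their median signals were 10.9 and 10.4 in replicates 1 and 2, with minima of 8.12 and 8.71. Across the 289 regions, which share their 2 libraries, the signals of the replicates had a Spearman correlation of 0.058 and a Pearson correlation of 0.19 on the log2 scale. Over the 4508 pooled regions listed in both, which were not selected by signal, the same values were 0.289 and 0.480. In the classes selected by the same signal limit they were 0.136 and 0.384 (strong promoter regions) and 0.118 and 0.278 (strong intergenic regions).

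A choice made in a single replicate tests repeatability without the pooled list. Applied to replicate 1 alone, the rule gave 347 strong intronic regions, and replicate 2 listed 142 of them (40.9%, 35.7 to 46.3), against 654 of 5272 weaker ones (12.4%). The odds ratio was 4.89 (Fisher's exact test, p = 3.85e-37). In the other direction, replicate 1 listed 179 of 348 regions chosen in replicate 2 (51.4%), against 22.6% of 2715 weaker ones (odds ratio 3.63, exact test, p = 1.31e-27). Strong regions recurred more often than weaker ones, yet most regions chosen in replicate 1 were not listed by replicate 2, whose list is shorter. The 79 pooled-list regions that ranked in the top 2000 of both replicates held a GATA site in 46 cases (58.2%, 46.6 to 69.2), against 107 of the other 289 (37.0%, 31.4 to 42.9), with an odds ratio of 2.37 (Fisher's exact test, p = 0.000815). Among strong intronic regions the site share also rose with pooled rank, from 33.3% at ranks 1001 to 2000 to 61.0% at ranks 1 to 253. Pooled rank was not held fixed here, so strength and agreement between replicates cannot be told apart. This comparison and the choice within a single replicate were added after the data were seen.

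**Figure D3:**
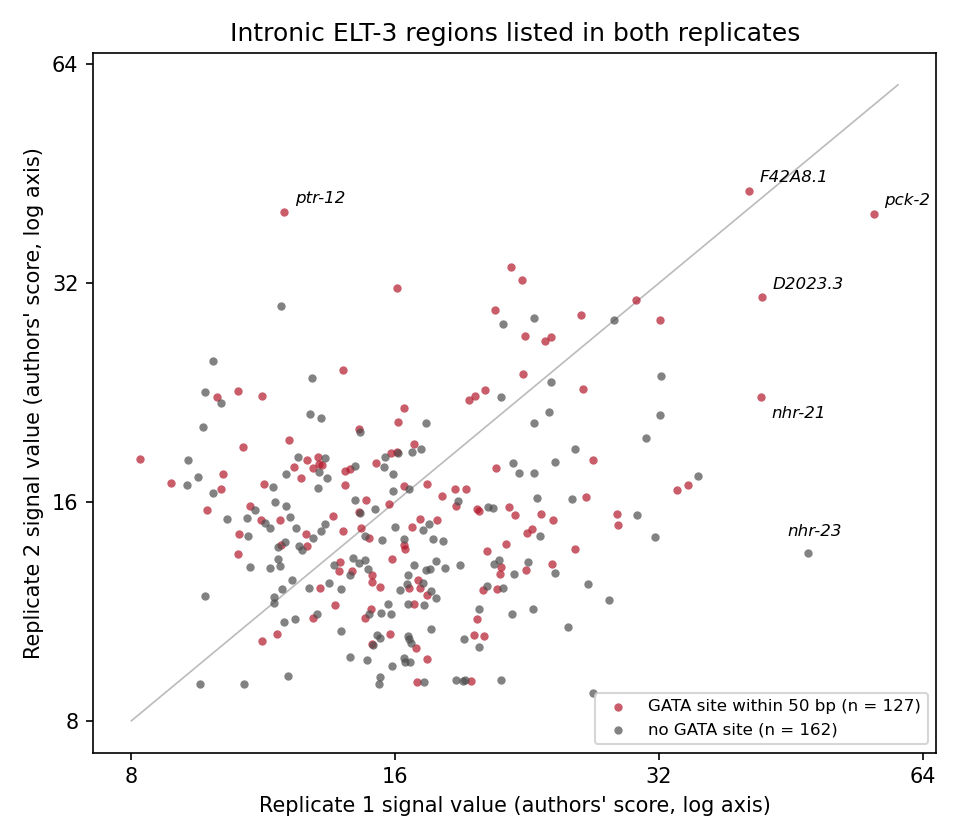
Signal values of replicate 2 (vertical axis) against replicate 1 (horizontal axis), both the authors' scores on log axes, for the 289 strong intronic regions listed in both, coloured by the presence of a GATA site. The pck-2 and F42A8.1 regions are high in both replicates, while nhr-23 is high in replicate 1 and ptr-12 in replicate 2.

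The strongest of the 368 regions lay in intron 2 of pck-2, which encodes a phosphoenolpyruvate carboxykinase of gluconeogenesis. Its pooled signal was 99.3, with 56.3 in replicate 1 and 39.9 in replicate 2, and it holds 2 GATA sites. The next was in intron 4 of F42A8.1, with 80.4 in the pool, 40.6 in replicate 1 and 42.9 in replicate 2. Intron 5 of D2023.3 held a region of 66.6 (42.0 and 30.6 in replicates 1 and 2) and another of 45.9. All 3 genes had high values in each replicate.

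Other metabolic genes were mthf-1 and acs-5. The first intron of mthf-1, which encodes a methylenetetrahydrofolate reductase of the folate cycle, held regions of 64.2 and 32.6. Their summits lay 147 and 317 bp from the nearest annotated transcript start, and they hold 3 sites and 1 site. The region in acs-5, an acyl-CoA synthetase gene, had a signal of 49.6 and 2 sites, with 20.8 in replicate 1 and 29.4 in replicate 2.

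The nuclear receptor gene nhr-21 held a region of 63.4, with 41.8 in replicate 1 and 22.3 in replicate 2. In nhr-23, a nuclear receptor gene needed for molting, the region had 47.4 in replicate 1 but 13.6 in replicate 2, the widest replicate 1 excess in the set. It has no GATA site and 62.4% G and C. The regions in pbrm-1, a polybromo subunit of a chromatin remodelling complex, in zip-2, a bZIP factor of stress and infection responses, and in rpoa-1, the large subunit of RNA polymerase I, had 57.9, 54.5 and 54.2. Of these, rpoa-1 holds a site, while pbrm-1 and zip-2 do not.

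Genes of structure and attachment followed. The region in anc-1, which anchors nuclei to the cytoskeleton, had a signal of 56.4 and no site. In the first intron of mup-4, which encodes a transmembrane protein that links the epidermis to the cuticle, a region of 55.2 had 26.0 in replicate 1 and 28.9 in replicate 2. The patched-related gene ptr-12 held a region of 49.6 that was uneven between replicates, 12.0 in replicate 1 and 40.1 in replicate 2. The remaining regions of the top 20 lay in pdl-1, lag-1, T27D12.6, hlh-30, D2030.2 and F52E1.9, with signals from 49.4 to 53.3. Together 12 of the top 20 hold a GATA site, and 4 of the 20 differ more than 2-fold between replicates.

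The 368 regions lie in 300 genes, 1.74% of 17242 autosomal protein-coding genes. There were 253 hosts of a single region, 31 of 2 regions and 16 of 3 or more. Neighbouring regions of the same gene were a median of 2208 bp apart and never closer than 398 bp. Among the 47 genes with several regions, 7 had a GATA site in every region, 25 in some and 15 in none.

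The longest series was in pkg-2, a cGMP-dependent protein kinase gene, with 6 regions. Intron 5, which is 6824 bp long, holds 5 of them with signals of 40.4, 37.0, 33.8, 32.7 and 27.1, and intron 6 holds the last with 33.0. A GATA site was found in 3 of the 6. In hlh-30, whose product resembles the mammalian lysosome and autophagy regulator TFEB, 5 regions spread over 14826 bp and 3 introns, with signals of 52.0, 38.2, 32.2, 27.6 and 27.1 and sites in 3. The Notch pathway DNA-binding factor gene lag-1 had 3 regions in its first intron, with 53.2, 51.5 and 44.3, and no GATA site in any.

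A further host of 3 regions was skn-1 (41.8, 33.4 and 26.4, with no site), which encodes the stress response factor related to Nrf proteins. In nhr-31, a nuclear receptor gene, the first intron held 3 regions of 37.8, 37.8 and 37.2, and a site lay in 1 of them. The others were ccch-1, akap-1, Y67D8A.2, Y48C3A.5, cest-24, dkf-2, daf-5, C30F12.5, ppfr-1, unc-73 and mig-10. Their strongest regions had signals from 29.7 in mig-10 to 45.4 in ccch-1. Among them, akap-1 encodes an A-kinase anchor protein, dkf-2 a protein kinase D, daf-5 a dauer pathway Ski family protein, ppfr-1 a phosphatase subunit, and unc-73 and mig-10 proteins of cell and axon migration.

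**Figure D4:**
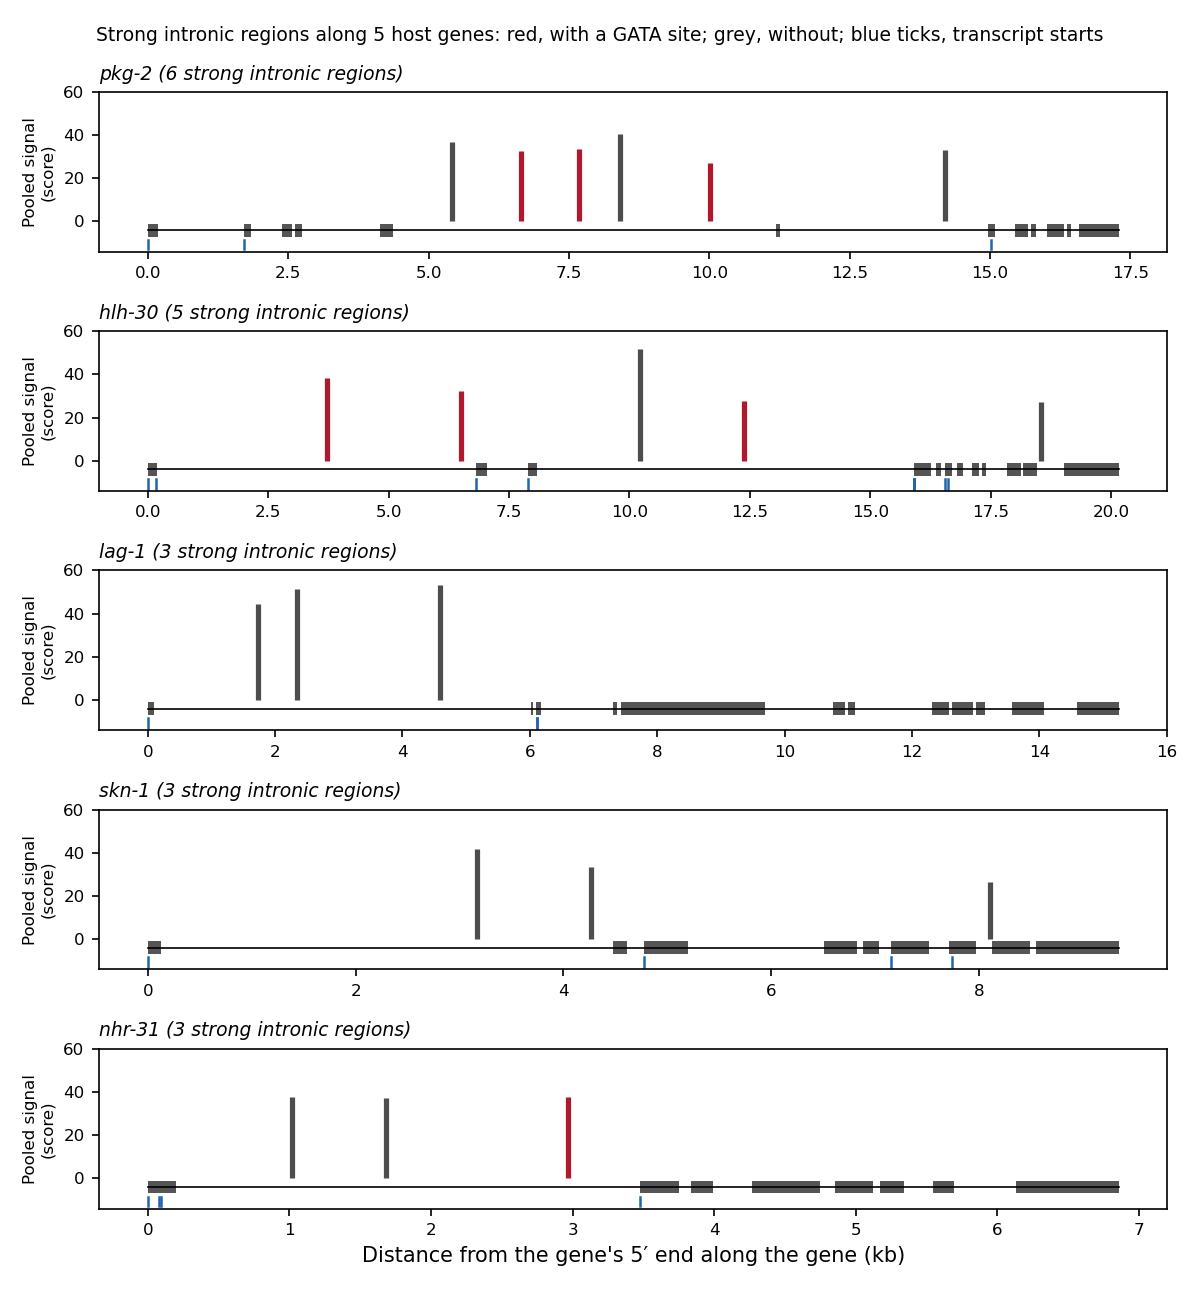
Strong intronic regions along pkg-2, hlh-30, lag-1, skn-1 and nhr-31, with the pooled signal of each region (vertical axis, authors' score) against distance from the 5′ end of the gene (horizontal axis, kb). Bars are red with a GATA site and grey without, boxes are annotated exons and blue ticks are transcript starts; the 3 lag-1 regions all stand in the first intron and all lack a site.

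Strong intronic regions lay in long introns. The intron that holds the summit had a median length of 1644 bp (quartiles 551.75 and 3936.25), against 799 bp for weaker intronic regions and 957 bp for the grid of intron positions. The first intron of the host held 115 of them (31.25%, 26.5 to 36.3), against 22.1% (21.0 to 23.2) of weaker regions and 20.7% of the grid. The median distance to the nearest exon was 296 bp, against 149 bp in weaker regions and 204 bp on the grid. Distance to the host's own 5′ end was similar, with medians of 2629, 2475 and 2666 bp. Per megabase of eligible intron there were 14.8 strong intronic regions, against 17.7 strong regions per megabase of intergenic space and 26.7 per megabase of promoter. Across chromosomes the density went from 12.1 per megabase on III to 19.1 on I, with 12.2 on V, 14.3 on IV and 16.1 on II.

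**Figure D5:**
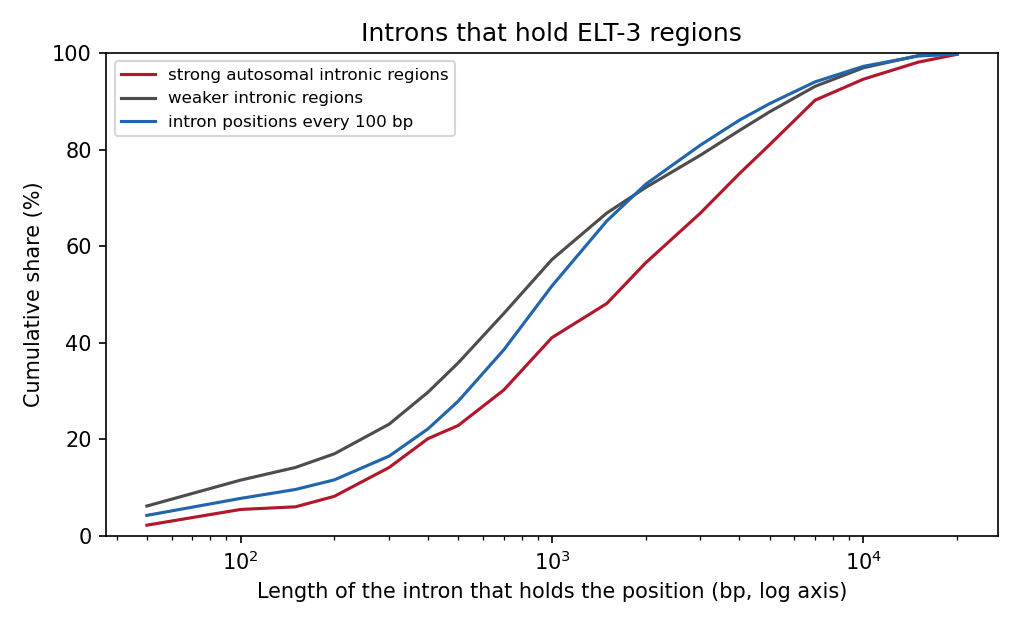
Cumulative share (vertical axis, percent) by length of the intron that holds the summit (horizontal axis, bp, log axis) for strong intronic regions, weaker intronic regions and positions every 100 bp in eligible introns. The strong regions run to the right of both other curves, with a median of 1644 bp against 799 and 957 bp.

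Annotated starts of other transcripts were the closest thing to a promoter inside these introns. Using the promoter limits around the 5′ end of any transcript of a protein-coding gene, 68 strong intronic regions (18.5%, 14.6 to 22.8) lay near a start, against 691 weaker ones (13.0%, 12.1 to 14.0). The share was 13.4% over both sets together, and the odds ratio was 1.51 (Fisher's exact test, p = 0.00424). The call did not hold within 200 bp to each side (odds ratio 1.08, exact test, p = 0.700), without replicate 1 (1.33, p = 0.0565), in introns over 1000 bp (1.28, p = 0.163) or in the first introns alone (1.32, p = 0.224). It held in later introns (15.8% of strong and 11.2% of weaker intronic regions, exact test, p = 0.0318) and with 1 region for each host gene (odds ratio 1.67, p = 0.00181). The checks by intron length, by first or later intron and by host gene were added after the data were seen. Intron length moved with this share. GATA sites were found in 48.5% (36.2 to 61.0) of strong intronic regions near such a start and in 40.0% (34.4 to 45.8) of those away from one, with 21.7% and 18.7% in weaker regions.

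Host genes had a strong region in their own promoter in 23 of 300 cases (7.67%, 4.92 to 11.3), against 3.54% (3.26 to 3.82) of the other autosomal genes. Among 4003 other genes whose introns are at least as long in sum as the lower quartile of the hosts, the share was 2.80% (2.31 to 3.36). The other hosts had a strong region inside an intron and no strong region in the promoter at the 5′ end of the gene. Weaker promoter regions were not counted here. Starts of alternative transcripts were not counted as promoters either, and 68 of the 368 strong intronic regions lay near such a start.

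Functional groups of host genes are given as counts against the 1.74% of all autosomal genes, with no test, because genes with more intron have more room for a region. The median host had 3931.5 bp of intron, against 664 bp in other genes. Of 16 autosomal epidermal regulators, 3 were hosts, namely nhr-23 (58.1), blmp-1 (34.6) and lin-26 (26.6), which is required for epidermal fate. Among 20 epidermal attachment and junction genes there were 2 hosts, mup-4 (55.2) and pat-12 (40.2), a gene of the fibrous organelles. Cuticle collagens, which have little intron, gave 2 hosts of 146, col-159 (33.5) and col-61 (28.8). The hedgehog-related gene qua-1 (33.2) was the single host among the 29 listed molting and apical matrix genes. With ptr-12 and ptr-14 (28.5) it made 3 of 73 hedgehog-related and patched-related genes. The lists are partial, so their counts and densities hold for the listed genes only. For example, the hosts mltn-9 (27.7), cutl-18 (34.0) and cutl-6 (26.6) are in no list. None of 22 epidermal growth signalling genes was a host. Per megabase of eligible intron there were 42.0 regions in epidermal regulators, 45.4 in collagens and 26.4 in hedgehog-related and patched-related genes, against 14.8 over all genes. Attachment and junction genes had 10.3 and molting and apical matrix genes 12.9, both below that density, and the value of each of these lists rests on 3 regions or fewer.

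Stress and longevity regulators gave 5 hosts of 23 with 12 regions. These were zip-2 (54.5), hlh-30 (52.0), atf-7 (48.4), an immune response factor under p38 signalling, skn-1 (41.8) and daf-16 (28.0), the FOXO factor of insulin signalling, which is named outside the naming rule. The list had 77.7 regions per megabase of eligible intron, against 14.8 over all genes, with 5 of the 12 in hlh-30. Of 246 nuclear receptor genes, 10 were hosts with 14 regions, led by nhr-21, nhr-23, nhr-31 and nhr-34 (37.1). Carbohydrate metabolism gave 3 of 22, which were pck-2, the glycogen phosphorylase gene pygl-1 (29.2) and the pyruvate kinase gene pyk-1 (26.7). Basement membrane genes gave 3 of 13, the peroxidasin gene pxn-1 (47.9), the perlecan gene unc-52 (28.3) and the collagen gene cle-1 (26.4). The densities were 44.1 per megabase in nuclear receptor genes, 53.0 in carbohydrate metabolism genes and 64 in basement membrane genes. They rest on 14, 3 and 4 regions.

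Genes of other tissues were hosts too. Body muscle gave 3 of 25, the paramyosin gene unc-15 (27.6), unc-89 (27.0) and the twitchin gene unc-22 (25.9), and pharynx gave tnt-4 (26.3) of 17. Neuronal genes gave unc-13 (32.0) and unc-17 (31.3) of 30, and ion channels gave unc-79 (30.0) and osm-9 (29.9) of 25. The channel genes twk-34 (34.8), twk-5 (34.6) and kvs-5 (26.9) were hosts too, but stand outside that list. Axon guidance gave unc-73 (34.0), mig-10 (29.7) and unc-53 (26.6) of 30. The homeobox hosts were nob-1, ceh-6, vab-7 and ceh-17, 4 of 66, with signals from 26.3 to 29.6, and hlh-30 was the single host of 31 helix-loop-helix genes. Neuronal genes had 11.8 regions per megabase of eligible intron, ion channels 15.9, homeobox genes 19.9 and body muscle genes 22.1. Axon guidance genes had 25.3, pharynx genes 29.8 and helix-loop-helix genes 81.8, the last from hlh-30 alone. The pharynx value rests on 1 region, and that of axon guidance genes on 7. Those of neuronal genes, ion channels, homeobox genes and body muscle genes rest on 2, 3, 4 and 3. No host was found among 22 intestine, 25 germline and 75 ribosomal protein genes, whose median intron totals were 749, 359 and 173 bp.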

How the data were processed

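ELT-3 ChIP-seq regions of whole L1 larvae were taken from the deposited narrowPeak lists of replicate 1, replicate 2, the pool of both and the optimal set, in ce11. Column 7 of each list was read as the authors' score, since no source used here states its scale, and the deposited lists in ce10 were not used. The aligner, the peak caller and its settings were not given in the sources used here. A region's summit is the position that the file gives, in all lists used the middle of the region, so it locates binding to the region and not to a base. Per the deposited file notes, the pooled list came from both replicates and a control, which is not analysed here.

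Positions are 1-based and were set against the Ensembl release 115 annotation of WBcel235, the same assembly as ce11, and sequence came from the RefSeq genome. Matches between lists were summits within 100 bp. Counts in 2 sets were compared with 2-sided Fisher's exact tests in scipy 1.17.1 with a threshold of 0.05, Benjamini-Hochberg adjustment (statsmodels 0.14.6) over 3 classes or 2080 words, and exact (Clopper-Pearson) 95% intervals, which cover counting error only. Distances, intron lengths and gene lists were described without a test. The word scan was tested on simulated windows. The regions, the 20 gene lists and the tests were chosen with earlier results of these data known. In the lists, nca-1 and efn-1 matched no gene name in the annotation.

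Genes named are hosts of the 20 strongest regions, hosts of 3 or more, and up to 4 hosts of each list by signal. A few hosts in no list are also named, to show that the lists are partial. Words named are the 10 with the smallest p in each comparison. Alternatives were other windows, GATA words, ranks, promoter limits, flanks, matching distances, a band of G and C content, 1 region for each host gene and each replicate alone.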

Additional observations from a re-analysis of the deposited data

How the results depend on the processing

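Of 83 alternatives fixed in advance over 12 results, 56 counted as the same, and of 8 added later, 6 did. For a test, this means that the direction and the side of the threshold were kept. Word counts and matching shares have no threshold, and those that moved are among the rest. The higher GATA site share of strong intronic regions over flanks and over weaker intronic regions held in every alternative run. Against strong promoter regions the odds ratio was 1.33 with the 4 letters GATA and 1.34 in windows with 35 to 45% G and C, and it went from 1.41 to 1.52 with either replicate left out, with the call lost without replicate 1. The comparisons that were not called changed direction in places. Against intergenic regions the odds ratio was 1.17 with a window of 25 bp. Against intronic regions on X it was 1.02 with 100 bp, 1.13 in the top 1000 and 1.17 with 1 region for each host gene. For transcript starts it was 1.08 within 200 bp, 1.28 in introns over 1000 bp and 1.32 in the first introns, and 1.33 to 1.37 with either replicate left out, with the call lost without replicate 1. Word counts were lower in each alternative run. With 25 bp, 22 words were more and 16 less frequent than in flanks, and 53 more and 26 less frequent than in weaker regions. In the band of G and C content these counts were 7 and 0, and 28 and 7. With either replicate left out they were 15 to 27 and 11 to 24 against flanks, and 63 to 72 and 36 against weaker regions. At 50 bp, 81.8% of strong intronic regions matched in replicate 1 and 73.1% in replicate 2. The cause was not tested in any of these cases. Strong intronic regions paired with their own flanks gave ratios of 3.61 (lower coordinate, exact McNemar test, p = 1.30e-12) and 3.34 (higher coordinate, p = 2.08e-12). Replicate numbers pair no samples, with 1 group. Read depth is not given, so the number of regions sets the precision.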
